A study of Mus musculus with 24 samples.

Results

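Ly6a, Ly6c1, Ly6c2 and Ly6e are 4 mouse genes of the Ly6 family, chosen from results already known in these same data, and all 4 were found among the 22009 named genes of the expression table. The data comprise 24 RNA sequencing libraries of CD4+ T cells from the spleen of WT C57BL/6 mice. The time-course cells were pooled from 6 mice according to the figure legend of the paper. That legend describes purified CD4+ T cells and the methods name naive CD4+ T cells, so which were sequenced is not settled here. Resting cells gave 2 libraries. Th0 cultures received anti-CD3 and anti-CD28 alone, Th1 cultures received anti-IL-4 and recombinant IL-12 in addition, and Th2 cultures received anti-IL-12, anti-IFN-γ and recombinant IL-4 in addition. Each culture was sequenced once at 4, 8, 12, 16, 20 and 24 h, so that the 6 time points stand in for replicates of a culture, and p-values measure only the spread between libraries that share a pool of animals. For the other 4 libraries, cells were stimulated for 16 h before exposure to actinomycin for 0, 1, 2 or 4 h. The skewing condition of these 4 libraries is not given in the sources used here. Values are RPKM, the reads of a gene scaled to its transcript length in kilobases and to the mapped reads of the library.

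Ly6 proteins are small surface proteins that share a cysteine-rich fold with the urokinase receptor. They are held on the outer face of the cell membrane by a glycosylphosphatidylinositol (GPI) anchor. Several of them are known as interferon-inducible genes of lymphocytes. Ly6a encodes Sca-1, a marker of haematopoietic stem cells that activated T cells also display. Ly6c1 and Ly6c2 encode the near-identical Ly6C antigens, found on monocytes and on subsets of T cells, and Ly6e encodes a thymocyte antigen that also acts in the response to viruses.

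The 4 genes lay together on chromosome 15 (GRCm38, GENCODE M21), within 156920 bases that held 1 other protein-coding gene, Ly6i. Ly6e (ENSMUSG00000022587.14) occupied chr15:74955051-74959905 on the plus strand. Ly6a (ENSMUSG00000075602.10) at chr15:74994877-74998031, Ly6c1 (ENSMUSG00000079018.10) at chr15:75044018-75048830 and Ly6c2 (ENSMUSG00000022584.14) at chr15:75108158-75111970 were on the minus strand. Ly6c1 and Ly6c2 were the closest pair, with 384 of 393 coding bases identical (97.7%). Ly6a shared 83.7% of its aligned coding bases with Ly6c1, and Ly6e shared 60.9% with Ly6a.

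How alike Ly6c1 and Ly6c2 are decides how reads can be told apart, so the most different 60 bases of their aligned coding sequences are given, from exon 2 of 4 of each gene, read from the GRCm38 minus strand at chr15:75048447-75048506 and chr15:75111603-75111662. Capitals mark the 6 bases of this window that differ. Elsewhere the coding sequences shared an unbroken run of 188 identical bases, and reads lying wholly within it cannot be told apart.
Ly6c1: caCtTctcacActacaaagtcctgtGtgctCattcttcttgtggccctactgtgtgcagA
Ly6c2: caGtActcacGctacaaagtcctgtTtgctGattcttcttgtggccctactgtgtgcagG

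Of all 50-base windows of the annotated Ly6c1 transcripts, 32.8% also occurred in another gene, 21.5% in Ly6c2 and 11.1% in Ly6a. The share was 19.0% for Ly6a, 14.4% for Ly6c2 and 0 for Ly6e. With 75-base windows it was 19.0% for Ly6c1, 6.33% for Ly6a and 9.46% for Ly6c2. These windows were pooled over all annotated transcripts, up to 2680 bases long for Ly6c2, and only exact matches were counted. The read counts of Ly6a and Ly6c2 were whole numbers for lengths of 819 and 796 bases. The share within those lengths was not computed and may be larger or smaller. The first-listed transcripts of Ly6a and Ly6c1 shared no run longer than 48 bases, so no 50-base window is common to those transcripts. How reads that match several genes were counted is not given in the sources used here, so part of the RPKM of Ly6a, Ly6c1 and Ly6c2 may be exchanged between them. Values of Ly6e do not carry this limit.

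The sequences just upstream of Ly6c1 and Ly6c2 differed more than their coding sequences, and are shown because the levels of both genes moved apart after stimulation. The 250 bases before each start site come from RefSeq (GRCm38.p6), at chr15:75048838-75049087 and chr15:75111972-75112221, minus strand. The table matched 2 of the 4 genes, Ly6c1 and Ly6c2, and held no entry for Ly6a and Ly6e. In an alignment of 216 positions, 164 were identical (75.9%). Capitals mark the 86 bases of each sequence that did not pair with the same base in the other.
Ly6c1: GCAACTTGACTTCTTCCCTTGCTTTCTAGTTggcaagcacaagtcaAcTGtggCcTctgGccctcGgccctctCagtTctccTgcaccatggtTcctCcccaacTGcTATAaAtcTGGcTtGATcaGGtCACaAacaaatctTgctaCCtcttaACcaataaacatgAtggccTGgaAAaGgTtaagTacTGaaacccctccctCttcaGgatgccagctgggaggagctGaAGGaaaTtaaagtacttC
Ly6c2: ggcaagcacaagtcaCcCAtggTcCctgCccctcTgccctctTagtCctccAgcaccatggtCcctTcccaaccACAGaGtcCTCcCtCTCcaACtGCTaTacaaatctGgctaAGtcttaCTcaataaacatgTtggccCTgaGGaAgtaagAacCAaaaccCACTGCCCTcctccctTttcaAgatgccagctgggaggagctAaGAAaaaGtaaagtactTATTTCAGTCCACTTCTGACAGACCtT

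Both RefSeq promoter windows of each gene, from 250 bases before to 50 bases after a start site, were searched on both strands for the core of the gamma-activated site bound by STAT factors (TTCNNNGAA) and for the core of the interferon response element (GAAANNGAA). Neither motif occurred in a window of Ly6c1 or Ly6c2. Of all 32851 windows in the table, 8.30% held the first and 8.56% the second, so most windows lack these letters.

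The libraries held between 17512385 and 33017133 mapped reads, as recovered from the step size of low RPKM values. Transcripts of the labelled cell type were abundant, with the summed level of 9 CD4 T cell genes between 1453 and 2164 RPKM in all 24 libraries. The resting libraries also carried transcripts of other blood cells. The sum of 14 monocyte and macrophage genes was 572 and 595 RPKM at rest and between 11.3 and 102.1 RPKM in the 18 cultures, and the sum of 7 red blood cell genes was 38837 and 42382 RPKM at rest, 29387 to 47109 RPKM at 4 h and 142 to 212 RPKM at 24 h. The sum of 5 plasma cell genes was 849 and 856 RPKM at rest and 103 to 116 RPKM at 24 h. That of 5 NK cell genes was 85.4 and 86.8 RPKM at rest and 8.84 to 15.1 RPKM at 24 h. No listed marker of these cells was at 0 in every library. In libraries of bulk RNA, fewer cells of a type and less RNA per cell cannot be told apart.

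Ly6a had the highest RPKM of the 4 genes in every Th0 and Th1 library, rose above rest in both, and was 3.07 to 12.4-fold lower in Th2 than in Th1. At rest it had 101 and 115 RPKM. In Th0 cultures it had 599, 781, 454, 341, 365 and 304 RPKM at 4, 8, 12, 16, 20 and 24 h. All 6 values lay above both resting values.

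In Th1 cultures Ly6a had 950.0, 559.6, 348, 444, 412 and 397 RPKM at the same times, again above rest throughout. In Th2 cultures it had 309, 152, 77.9, 42.5, 35.8 and 32.1 RPKM. The first 2 Th2 values were above rest and the other 4 below it, so the Th2 culture crossed the resting level between 8 and 12 h.

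The read counts behind Ly6a were large. The lowest level, 32.1 RPKM in Th2 at 24 h, rested on 672 reads, with an exact 95% Poisson interval of 28.7 to 35.7 RPKM when the reads were taken as pairs, and the Th1 value at that time had an interval of 386 to 409 RPKM. These intervals cover counting error only. The ratio of Th1 to Th2 was 3.07 at 4 h, 4.47 at 12 h and 12.4 at 24 h.

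Ly6c1 had 79.8 and 81.1 RPKM at rest, and the cultures fell on both sides of that level. In Th0 it had 208, 267, 139, 106, 94.2 and 111 RPKM at 4 to 24 h, and in Th1 413, 231, 129.9, 188, 114 and 99.4 RPKM. All 12 values were above rest, highest at 4 or 8 h and lowest at 20 or 24 h.

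In Th2 cultures Ly6c1 had 71.1, 33.1, 21.6, 13.0, 11.5 and 13.2 RPKM, all below both resting libraries. The highest Th2 value was below the lowest value of Th0 or Th1, which held for no other of the 4 genes. Over the 10737 genes tested between the cultures, this separation of Th2 was seen in 0.475%. The ratio of Th1 to Th2 was 5.81 at 4 h, 14.4 at 16 h and 7.53 at 24 h, so the gap was already wide at the first time point.

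Ly6c2 started at 48.3 and 57.4 RPKM and was below both resting values in all 18 cultures. In Th0 it had 29.6, 30.5, 19.6, 16.3, 13.6 and 8.29 RPKM, and in Th1 31.1, 25.4, 18.6, 22.1, 17.6 and 11.6 RPKM. In Th2 it had 30.0, 13.2, 9.54, 4.67, 3.50 and 3.88 RPKM.

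At 4 h the levels of Ly6c2 in the 3 cultures overlapped within counting error, with 95% intervals of 26.2 to 33.2 RPKM in Th0, 27.6 to 35.0 in Th1 and 26.3 to 34.1 in Th2. From 8 h on Th2 was the lowest, and at 20 h its 86 reads gave an interval of 2.54 to 4.72 RPKM against 15.2 to 20.1 RPKM in Th1. The monocyte and macrophage, plasma cell and NK cell sums given above were highest in the resting libraries too. Ccr2 and Lyz2, markers of monocytes and myeloid cells, had 10.9 and 42.9 RPKM at rest and a highest 24 h value of 1.66 and 6.48 RPKM. The part of any of these cells in the resting level of Ly6c2 was not tested.

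Ly6e had the highest RPKM of the 4 genes at rest, at 273 and 302 RPKM. In Th0 it had 336, 273, 172, 160.3, 149 and 120.4 RPKM and in Th1 329, 203, 140.1, 164, 128 and 114 RPKM. Only the 4 h values of Th0 and Th1 were above both resting libraries.

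In Th2 cultures Ly6e had 194, 94.9, 75.1, 73.9, 74.2 and 58.1 RPKM, below rest at every time. Between 12 and 20 h the Th2 values differed by little, at 73.9 to 75.1 RPKM. The ratio of Th1 to Th2 stayed between 1.70 at 4 h and 2.22 at 16 h.

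**Figure D1:**
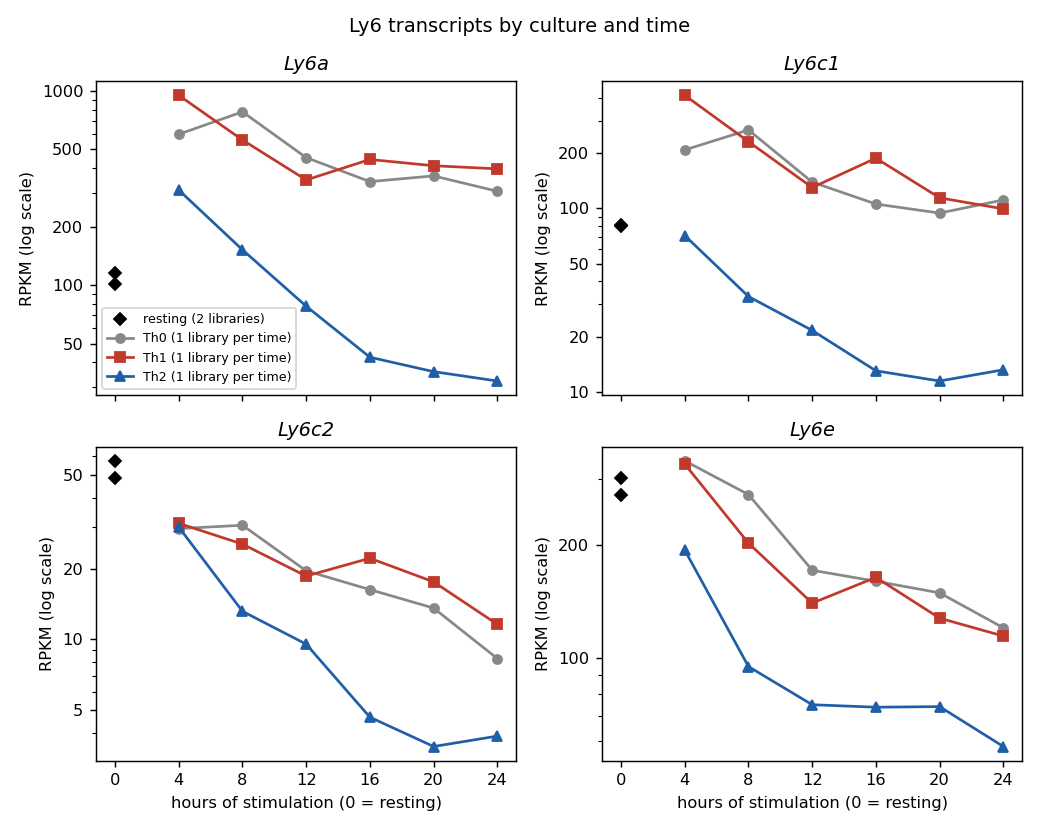
RPKM (log scale) of each of the 4 genes against hours of stimulation, with black diamonds for the 2 resting libraries at 0 h and 1 point per library for Th0 (grey circles), Th1 (red squares) and Th2 (blue triangles). Th2 runs lowest for all 4 genes from 8 h on, and Ly6c2 starts from a shared level near 30.0 RPKM at 4 h.

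Th2 was the lowest culture at all 6 time points for Ly6a, Ly6c1 and Ly6e, and at 5 of 6 for Ly6c2, the exception being 4 h. This order at all 6 time points was seen in 7.84% of the genes tested. Th1 and Th0 had no fixed order. Th1 was above Th0 at 4 of 6 time points for Ly6a and Ly6c2, at 3 for Ly6c1 and at 1 for Ly6e.

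Over the 6 time points together, with time as a factor in a limma fit on log2(RPKM + 0.5), Ly6a was lower in Th2 than in Th1 by -2.69 ± 0.26 (log2, standard error), or 6.45-fold. The same fit gave -2.97 ± 0.18 for Ly6c1, 7.81-fold, and -1.28 ± 0.21 for Ly6c2, 2.42-fold. Ly6e differed by -0.94 ± 0.08, 1.92-fold, which is under the limit of 2-fold. The 4 genes passed the filter on low values, a mean of 1 RPKM or more, in every fit. At an adjusted p under 0.05 and at least 2-fold, 3 of the 4 were past the threshold, beside 1.39% of the 10737 genes tested. Since the genes were selected on these libraries, nothing is read from that count.

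Against Th0, with the same Th2 libraries, the log2 differences were -2.57 ± 0.26 for Ly6a, -2.70 ± 0.18 for Ly6c1, -1.11 ± 0.21 for Ly6c2 and -1.11 ± 0.08 for Ly6e. All 4 were past the threshold, beside 1.83% of the genes tested, again as a description. Ly6c2 was just under 2-fold when 1 time point was left out, at -0.996 without 16 h and -0.973 without 20 h. Between Th1 and Th0 the log2 differences ran from -0.17 ± 0.08 for Ly6e to 0.27 ± 0.18 for Ly6c1. None of the 4 was past the threshold, beside 0.494% of the genes tested in either direction, and these values do not show that Th1 and Th0 were alike.

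The gap between Th2 and Th1 widened with time for Ly6a. Fitted as a linear change over the 12 Th1 and Th2 libraries, the log2 ratio of Th2 to Th1 moved by -0.115 ± 0.014 per hour for Ly6a and by -0.086 ± 0.022 for Ly6c2. The values for Ly6c1 and Ly6e were -0.031 ± 0.019 and -0.0027 ± 0.0103. Ly6a alone was past an adjusted p of 0.05, beside 2.72% of 10707 genes with a falling trend. Ly6c2 also passed it without the 16 h or the 24 h libraries, where its slope was -0.080 and -0.136 per hour.

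**Figure D2:**
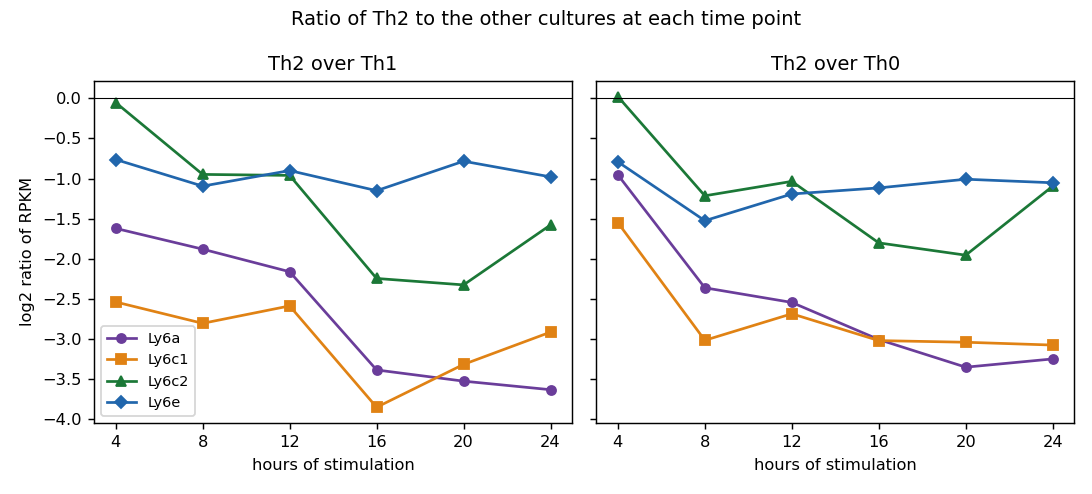
log2 ratio of the RPKM of Th2 to that of Th1 (left) and Th0 (right) at each time point, 1 library per point, for the 4 genes. Ly6c2 starts near 0 at 4 h, Ly6a falls stepwise to a Th1 to Th2 ratio of 12.4 at 24 h, Ly6c1 is already 5.81-fold lower in Th2 than in Th1 at 4 h, and Ly6e lies between 1.70 and 2.22-fold lower in Th2 than in Th1 and between 1.73 and 2.88-fold lower than in Th0.

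Compared with the 2 resting libraries, the levels in culture differed from gene to gene. The names of both resting libraries carry a tag that differs from the one shared by all cultures. What the tag stands for is not given, and changes from rest cannot be told apart from it. Over its 6 libraries, Th0 differed from rest by 2.05 ± 0.63 for Ly6a, 0.83 ± 0.59 for Ly6c1, -1.53 ± 0.60 for Ly6c2 and -0.60 ± 0.43 for Ly6e (log2, standard error). In Th1 the differences were 2.17 ± 0.63, 1.10 ± 0.59, -1.37 ± 0.60 and -0.77 ± 0.43 in the same order. Ly6a was past the threshold in both, beside 3.70% of 10897 genes higher in Th0 and 6.38% higher in Th1. Under quantile normalization Ly6c2 was also past it in Th0, at -1.66, beside 892 of 10897 genes lower.

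In Th2 the differences from rest were -0.52 ± 0.63 for Ly6a, -1.87 ± 0.59 for Ly6c1, -2.64 ± 0.60 for Ly6c2 and -1.71 ± 0.43 for Ly6e. Ly6c1, Ly6c2 and Ly6e were past the threshold, beside 15.0% of genes lower. With either resting library left out, Ly6a was no longer past it in Th0 or Th1, nor Ly6c1 in Th2, and without resting replicate 2 Ly6e was not past it in Th2. The sizes then differed little, at 1.95 to 2.26 for Ly6a, -1.88 and -1.86 for Ly6c1, and -1.64 for Ly6e. The resting libraries themselves differed by 0.02 (Ly6c1) to 0.25 (Ly6c2) on the log2 scale.

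Taking the 3 cultures of a time point together, 4 h differed from rest by 2.37 ± 1.24 for Ly6a and 1.18 ± 1.30 for Ly6c1. For Ly6c2 and Ly6e the differences were -0.79 ± 0.63 and -0.05 ± 0.48. None was past the threshold, beside 10.6% of genes in either direction, with the 3 cultures spread on both sides of rest for Ly6c1. Without the Th2 cultures, where both genes were lowest, the differences at 4 h were 2.80 for Ly6a and 1.86 for Ly6c1, both past the threshold. With all 3 cultures but only the libraries of rest and 4 h in the fit, Ly6a was also past it, at the same 2.37. In the main fit 2.61% of genes were higher at 4 h. The shares in these refits are not given here. Since the genes were selected on these libraries, nothing is read from the calls.

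At 24 h Ly6c2 was lower than at rest by -2.78 ± 0.63 and Ly6e by -1.62 ± 0.48, both past the threshold, beside 17.4% of genes lower. Ly6a differed by 0.54 ± 1.24 and Ly6c1 by -0.60 ± 1.30, values smaller than the spread between cultures. Without the Th2 cultures, where it was lowest, Ly6a at 24 h was 1.68 above rest and past the threshold. In the fit of all cultures 12.7% of genes were higher at 24 h. The share without Th2 is not given here, and nothing is read from this call. Transcripts of monocytes, red blood cells, plasma cells and NK cells fell over the same interval, as given above, and their part was not tested.

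The balance of the Ly6C pair shifted on stimulation. The ratio of Ly6c1 to Ly6c2, both in RPKM, was 1.65 and 1.41 at rest. It lay between 6.49 and 13.4 in the 6 Th0 libraries and between 6.50 and 13.3 in the 6 Th1 libraries. In the 6 Th2 libraries it lay between 2.27 and 3.40, above rest and below every Th0 and Th1 library.

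Ly6c2 accordingly made up 37.7% and 41.4% of the summed Ly6C level at rest, 6.94% to 13.4% in Th0, 7.01% to 13.3% in Th1 and 22.7% to 30.6% in Th2. The ratio of Ly6a to Ly6c1 was steadier among the cultures, at 2.74 to 3.88 in Th0, 2.30 to 4.00 in Th1 and 2.43 to 4.60 in Th2, against 1.27 and 1.42 at rest. Windows shared between the genes could move such ratios, and their part was not tested.

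**Figure D3:**
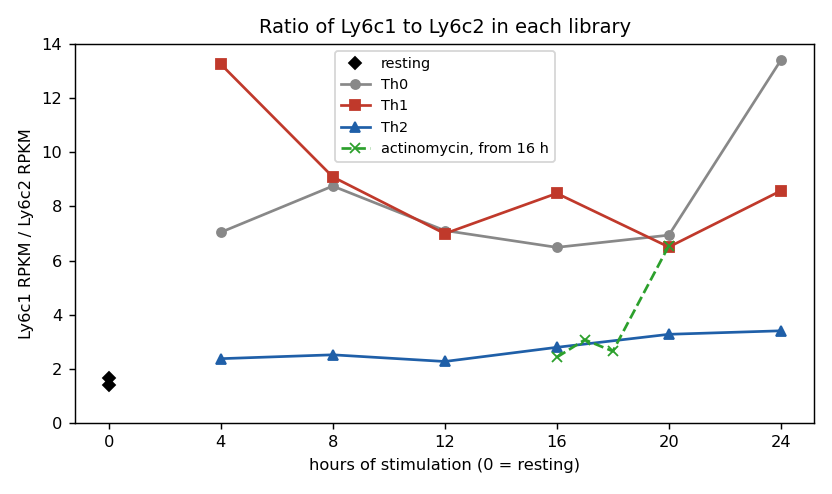
Ratio of the RPKM of Ly6c1 to that of Ly6c2 in each of the 24 libraries, against hours of stimulation, with the actinomycin libraries placed from 16 h on. Resting libraries lie at 1.41 and 1.65, Th2 between 2.27 and 3.40, and Th0 and Th1 between 6.49 and 13.4.

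After actinomycin, a blocker of transcription, the 4 transcripts took different courses. Ly6c2 had 19.5, 17.4, 21.1 and 7.38 RPKM at 0, 1, 2 and 4 h. Its last value rested on 106 reads, with a 95% interval of 5.53 to 9.65 RPKM, against 17.9 to 24.7 RPKM at 2 h. The fall of Ly6c2 was thus seen in the 4 h library alone. The sum of the 14 monocyte and macrophage genes was 66.3 to 89.4 RPKM in these 4 libraries. Lyz2 had a mean of 44.3 RPKM there, against means of 7.63 to 14.2 RPKM in the 3 cultures, and the part of these transcripts in the course of Ly6c2 was not tested.

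Ly6a had 175, 186, 171 and 132 RPKM, with the 4 h library lowest. Ly6c1 had 47.3, 53.6, 55.9 and 48.3 RPKM and ended where it began. Ly6e had 78.9, 90.1, 87.3 and 108 RPKM, with its highest value at 4 h. RPKM is a share of the RNA present, so a transcript that decays more slowly than most rises on this scale.

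The least-squares slope of log2(RPKM + 0.1) was -0.341 ± 0.159 per hour for Ly6c2, -0.113 ± 0.043 for Ly6a, -0.00098 ± 0.04805 for Ly6c1 and 0.106 ± 0.026 for Ly6e (standard error of the slope). The median over all 10571 genes was 0.0024 per hour, with quartiles of -0.101 and 0.0969. Ly6c2 lay above 2.59% of genes, Ly6a above 22.8%, Ly6c1 above 49.0% and Ly6e above 77.1%. Without the 4 h library the slope of Ly6c2 was 0.056 and that of Ly6c1 0.120, and no time had a second library.

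At the start of actinomycin all 4 genes lay within the range of the 16 h cultures. Ly6a, at 175 RPKM, was between the Th2 value of 42.5 and the Th0 value of 341 RPKM, and Ly6c1, at 47.3 RPKM, between 13.0 and 106. Ly6e, at 78.9 RPKM, was close to the Th2 value of 73.9, while Ly6c2, at 19.5 RPKM, was between the Th0 and Th1 values of 16.3 and 22.1. The nearest culture was thus not the same for the 4 genes.

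**Figure D4:**
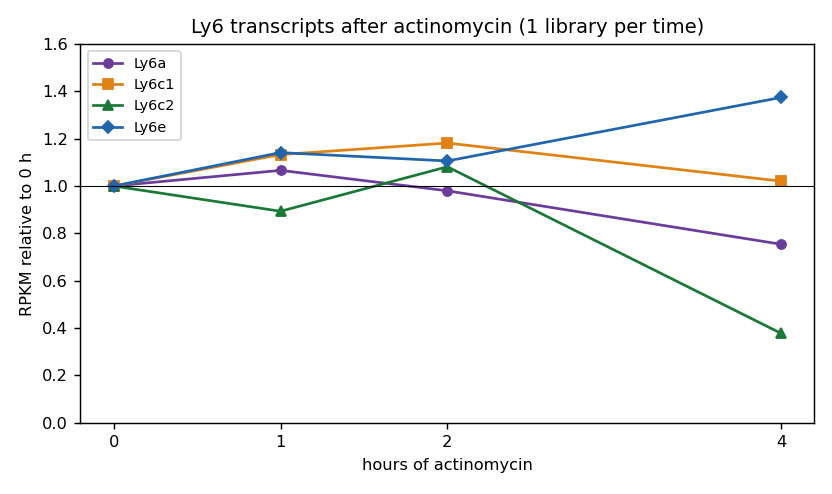
RPKM of the 4 genes relative to the library at 0 h, against hours of actinomycin, with 1 library per time. Ly6c2 ends at 0.378 of its start, Ly6a at 0.754, Ly6c1 at 1.02 and Ly6e at 1.37.

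Among the other genes of the Ly6 and urokinase receptor family, 36 of 42 listed genes were in the table. Of these, 26 were under 1 RPKM in all 24 libraries and 7 passed the filter for the comparison of cultures. Between Th2 and Th1 only Ly6i, the neighbour of Ly6a, was called, with 1 of 7 lower in Th2 than in Th1 and 0 of 7 higher, beside 1.39% and 0.568% of all genes. The median log2 difference of the 7 genes was -0.05, beside 0.02 over all genes tested.

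Ly6i had 2.87 and 2.14 RPKM at rest, 17.7 to 4.26 RPKM in Th1 and 2.84 to 0.501 RPKM in Th2. Its log2 difference between Th2 and Th1 was -2.38 ± 0.17 (limma, adjusted p = 1.01e-07), with all 6 time points lower in Th2, and between Th2 and Th0 it was -1.78 ± 0.17 (limma, adjusted p = 2.72e-06). Of its 50-base windows 4.76% occurred in another gene, 2.68% in Ly6a. A level this far below that of Ly6a could hold reads of Ly6a, and this was not tested.

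Ly6d, a marker of early B cells on the same chromosome, had 19.6 and 22.5 RPKM at rest and 3.03 to 4.07 RPKM at 24 h. It fell by 2.40 on the log2 scale between rest and 24 h (limma, adjusted p = 1.42e-06). Between Th2 and Th1 it differed by 0.09 ± 0.17 (limma, adjusted p = 0.783). The sum of 9 B cell genes was 79.7 and 91.1 RPKM at rest and 10.9 to 20.2 RPKM at 24 h, and its part in the fall of Ly6d was not tested.

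Plaur, the urokinase receptor itself, had 10.7, 7.80, 3.52, 1.87, 1.65 and 1.48 RPKM in Th2 and 8.86, 4.61, 3.62, 3.07, 5.19 and 9.79 RPKM in Th1. Its ratio of Th2 to Th1 fell by 0.143 per hour on the log2 scale (limma, adjusted p = 0.00738), while its difference over all times, -0.57 ± 0.37, was not past the threshold (limma, adjusted p = 0.352). Over 12 to 24 h alone the difference was past it, at -1.10 from Th1 (limma, adjusted p = 0.0171) and -1.06 from Th0 (limma, adjusted p = 0.0183). Without the 24 h libraries the trend was not past an adjusted p of 0.05 (limma, adjusted p = 0.0643). Cd59b, an inhibitor of complement, was higher at 24 h than at rest by 1.17 ± 0.26 (limma, adjusted p = 0.000828), and Lypd6b was lower by -2.01 ± 0.33 (limma, adjusted p = 5.5e-05). Neither was called between Th2 and Th1.

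**Figure D5:**
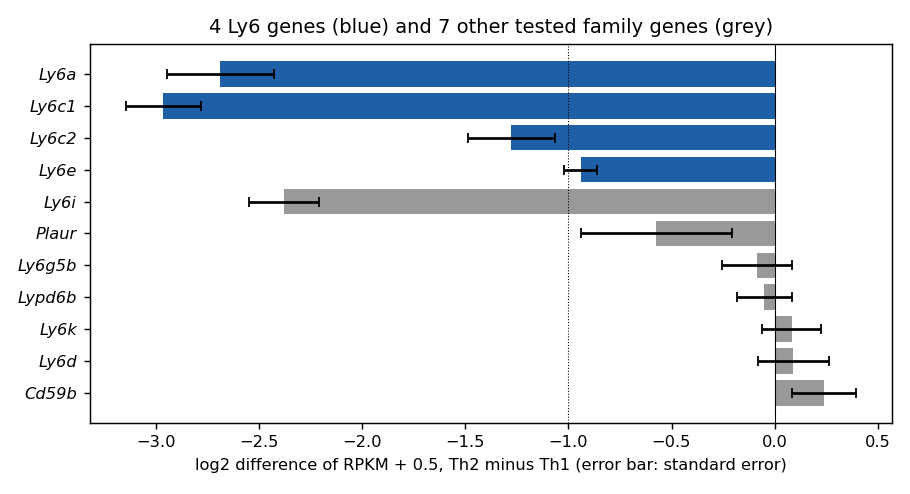
Fitted log2 difference between Th2 and Th1 (bars, with the standard error) for the 4 Ly6 genes in blue and the 7 other family genes that passed the filter in grey, with a dotted line at 2-fold lower. Ly6i, at -2.38, is the only grey bar beyond the line.

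GPI-anchor assembly genes attach Ly6 proteins to the membrane. Of 28 tested, 0 passed the limma threshold in either direction between Th2 and Th1, beside 1.96% of all genes, a share at which a count of 0 in a list of this size says nothing about its genes. Of the 28, 6 had an unadjusted p under 0.05, and the median log2 difference was 0.01. At an adjusted p alone, Piga, which starts the anchor, differed by -0.39 ± 0.11 (limma, adjusted p = 0.0241) and Pigv, which adds a mannose, by -0.32 ± 0.09 (limma, adjusted p = 0.0236).

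Of 12 other GPI-anchored surface proteins of T cells tested, 1 was lower and 1 higher in Th2 than in Th1, beside 1.39% and 0.568% of all genes, and single calls are not read as a result about the group. Cd55, a regulator of complement, was lower by -1.22 ± 0.13 (limma, adjusted p = 7.04e-06), and Prnp, the prion protein, was higher by 1.16 ± 0.14 (limma, adjusted p = 2.28e-05). The log2 difference was -0.60 ± 0.09 for Bst2, the antiviral protein tetherin, and 0.81 ± 0.19 for Cd160, a receptor of cytotoxic cells, both under 2-fold.

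Genes known to respond to interferon-gamma stood low in the same Th2 libraries. Of 22 tested, 19 were lower in Th2 than in Th1 and 0 higher, beside 1.39% and 0.568% of all genes tested. This list and that of the type I response below were chosen with earlier results of these data known. Their counts are therefore given as a description. The median log2 difference was -2.05, beside 0.02 over all genes. The chemokines Cxcl10 and Cxcl9 were lower by -3.79 ± 0.11 (limma, adjusted p = 1.84e-12) and -2.67 ± 0.17 (limma, adjusted p = 2.24e-08). The GTPases Iigp1 and Gbp2 were lower by -2.62 ± 0.20 and -2.53 ± 0.16. These named genes have the largest differences of the list. The values of Ly6a and Ly6c1 lie among theirs, and those of Ly6c2 and Ly6e are smaller. Some genes of the same list differed less. Psmb8 had means of 171 RPKM in Th1 and 103 RPKM in Th2, and Tap1 had 163 and 75.8 RPKM.

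Against Th0, 19 of the 22 were also lower in Th2, beside 1.83% of all genes, with a median of -2.24. Of 23 tested genes of the type I interferon response, 12 were lower in Th2 than in Th1, beside 1.39% of all genes, and 17 lower than in Th0, beside 1.83%, with medians of -1.03 and -1.19. Ifit3, an antiviral protein, was lower in Th2 than in Th1 by -2.42 ± 0.26 and Oasl2, of the oligoadenylate synthetase family, by -1.94 ± 0.15. The values of Ly6c2 and Ly6e lie nearer to these medians.

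Ifng, which encodes interferon-gamma, had a mean of 397.7 RPKM in Th1, 68.1 RPKM in Th2 and 52.5 RPKM in Th0. It was lower in Th2 than in Th1 by -2.49 ± 0.26 (limma, adjusted p = 7.09e-06), while Th2 differed from Th0 by 0.66 ± 0.26 (limma, adjusted p = 0.0679). Th1 was above Th0 by 3.15 ± 0.26 for Ifng (limma, adjusted p = 8.68e-06), beside the -0.17 to 0.27 of the 4 Ly6 genes. Anti-IFN-γ was present in the Th2 cultures alone, together with IL-4 and anti-IL-12, and their effects cannot be told apart. Tbx21, which directs Th1 differentiation, was lower in Th2 than in Th1 by -2.23 ± 0.33 (limma, adjusted p = 0.000248).

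Likeness of pattern was measured as Pearson's r of log2(RPKM + 0.5) across the 20 time-course libraries, over the 8478 genes averaging 5 RPKM or more, as a description. These libraries share their time course, and how common high values are among all genes was not computed. The genes most like Ly6a were Irgm1 (r = 0.981), Iigp1 (0.970), Gm43302 (0.968), Tgtp2 (0.965) and Tgtp1 (0.957), of which 4 were on the list of interferon-gamma response genes. Among the 5 most like Ly6c1 were Irf1 (r = 0.971), Gm43302 (0.967), Serpina3f (0.965) and Sp140 (0.961).

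Those most like Ly6c2 were Oas3 (r = 0.975), Lgals3bp (0.972), Dhx58 (0.964), Lyz2 (0.962) and Mndal (0.962). Oas3 and Dhx58 were on the list of the type I interferon response, and Lyz2, the lysozyme of myeloid cells, was on the monocyte list. Those most like Ly6e were Pecam1 (r = 0.984), Ifi203 (0.979), 9930111J21Rik2 (0.977), Klhl6 (0.976) and Irf9 (0.975). By rank correlation, 3 of the 5 genes most like Ly6c1 stayed among its first 5, and 0 of those most like each of the other genes. With the 4 actinomycin libraries added, 1 of the 5 genes most like Ly6c2 stayed.

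Among the 4 genes, r was 0.949 between Ly6a and Ly6c1 and 0.920 between Ly6c2 and Ly6e. It was lowest, at 0.612, between Ly6a and Ly6c2. Ly6c1 and Ly6c2, the closest pair in sequence, had an r of 0.747.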

How the data were processed

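RNA from 24 libraries of mouse CD4+ T cells was sequenced by the authors on the Illumina NextSeq 500. The deposited table holds RPKM values for 22010 entries, 1 of them unnamed and 0 throughout. The submitters' processing notes name BWA and GRCm38, and further settings, strand and the handling of reads with several matches are not given in the sources used here. The 4 genes and all lists were chosen with earlier results of these data known.

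Values were analysed as log2(RPKM + 0.5), so fold changes of low genes are understated. Genes averaging 1 RPKM or more over the libraries of a fit were tested with limma 3.58.1 (R 4.3.3, eBayes with trend) and Benjamini-Hochberg adjustment. A gene was called at an adjusted p under 0.05 and at least 2-fold, and trends at the adjusted p alone. Cultures were compared over 18 libraries with time as a factor, time points or cultures with rest over 20, and the trend over 12. No p is given for the 4 genes. Slopes after actinomycin used log2(RPKM + 0.1). For other family genes an exact permutation of the 4 times was run, whose smallest two-sided p is 0.0417.

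Of the genes with a single transcript, 61.1% to 63.5% per library gave whole read counts within 0.02, which set the depth. Since 55.3% to 63.6% of low counts were even, intervals took the reads as pairs. Ly6c1 and Ly6e gave no whole counts and have no interval. Named genes were the 4 genes, family genes with at least 1 RPKM in 1 or more libraries, the 5 genes most like each, and up to 4 per list with the largest difference between Th2 and Th1, of which 1 is not reported here. Coding sequences were built from GENCODE M21 and aligned with Biopython 1.88. Scripts were tested on simulated data. Protein sequences were not used here.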

Additional observations from a re-analysis of the deposited data

Results flagged for a closer look

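Ly6c1 was on opposite sides of rest in different cultures, in every library. Its mean log2 change from rest was 1.10 over the 6 Th1 libraries and 0.83 over the 6 Th0 libraries, all above both resting libraries, and -1.87 over the 6 Th2 libraries, all below them. The difference between these changes was not tested, since the gene was chosen on these data, and the direction in each culture held in all 10 alternatives of each contrast with rest.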

How the results depend on the processing

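Of 476 alternatives for the 4 genes, 470 moved the value by less than its spread. These included every one of the comparisons between cultures and with rest. For fits the spread was the residual standard deviation, which is larger than the standard errors given above. For slopes after actinomycin it was the standard error. Within this spread, the 24 h difference from rest ran from -0.12 to 1.68 for Ly6a and from -1.13 to 0.38 for Ly6c1. Ly6a in Th2 against Th1 reached -3.16 with 12 to 24 h alone. The slopes after actinomycin rested on single libraries. With 1 library left out they ran from -0.170 to -0.015 per hour for Ly6a, from -0.058 to 0.120 for Ly6c1, from -0.459 to 0.056 for Ly6c2 (the reversed value without 4 h) and from 0.073 to 0.115 for Ly6e, and the cause was not tested. Where only genes averaging 5 RPKM or more were tested (8478 in the fits with rest), 646 genes were past the threshold at 4 h against 1152, 1147 were lower at 24 h against 1891, 951 were lower in Th2 than at rest against 1633 and, between cultures, 39 were higher in Th2 than in Th1 against 61. With 1 resting library, assumed to vary like the other groups, 137 to 162 genes were higher in Th0 against 403, 224 to 226 were higher in Th1 against 695, and 965 to 987 were lower in Th2. Quantile normalization gave 721 genes higher in Th0. With 1 time point left out, the falling trend was called for 28 (without 20 h) to 674 (without 4 h) genes against 291, with 134, 103 and 61 without 8, 12 and 24 h, so its background share depends on single time points. Higher genes made up 24.7%, 28.7%, 36.0%, 38.7% and 18.7% of those past the threshold at 4 h, in Th0, Th1 and Th2 against rest and in the trend, and 39.9%, 44.7%, 49.6%, 50.6% and 30.5% under quantile normalization. At 24 h the share was 42.3%, and 52.4% under quantile normalization. Fits between cultures matched the libraries by time point, as a factor. Beyond this, no paired analysis was possible because replicate numbers are given for the resting libraries alone. The culture effects rest on 1 library per time point from 1 pool of mice, and 1 culture per condition.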

Other observations

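After actinomycin, the slopes of 6 other family genes were set against an exact permutation of the 4 times. An adjusted p under 0.05 would need all 6 genes at the smallest p the test can give, so the adjusted values say nothing about these genes. Lypd6b rose with each time, from 1.63 to 2.47 RPKM (slope 0.141 per hour, exact permutation p = 0.0417, adjusted p = 0.15), and Ly6i was lower with each time, from 5.74 to 3.04 RPKM (slope -0.225 per hour, exact permutation p = 0.125, adjusted p = 0.15). Ly6f, on chromosome 15 but outside the span of the 4 genes, was under 1 RPKM in all but 2 libraries. It had 0.289 to 1.12 RPKM in Th1, above Th0 at all 6 time points. In Th2 it was listed at 0 at 20 and 24 h. Cd59a had a mean of 3.32 RPKM at rest and at most 1.25 RPKM in any culture.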
